A study of Zea mays with 36 samples.

Results

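Cytokinin receptors and response regulators were followed in the maize shoot apical meristem (SAM), the dome of dividing cells that gives rise to leaves and stem. The members were the genes RR4, RR9, HK1 and hk3, found as all spots whose platform annotation carries one of these names as symbol or synonym. They were represented by 7 of 30329 probes with values and by 4 of 740 named genes. On the first slide set RR4 had 2 probes (12952 and 18954), RR9 had 1 (18676) and hk3 had 1 (18043). On the second slide set RR4 (510), hk3 (2715) and HK1 (4259) had 1 probe each, so most values are those of a single clone. The gene identifiers are 541630 for RR4, 541638 for RR9, 541634 for HK1 and 541642 for hk3.

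Each of 6 biological replicates paired RNA of laser-captured SAM, taken with the very youngest leaf primordia, with RNA of the above-ground part of whole seedlings. All plants were of the inbred line B73 and 14 days old. The SAM pools held 6 to 10 meristems and the seedling pools 6 plants, which contain a meristem themselves. The same RNA pairs, amplified with T7 polymerase, went onto 1 slide of each of 2 cDNA slide sets. SAM was in Cy3 on odd replicates and in Cy5 on even ones, and 3 scans of each slide were used, called low, medium and high. In 1 scan (replicate 4, high, first set) both dyes carry a seedling source label, and the Cy5 channel was taken as SAM as in its sample name.

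Cytokinins are plant hormones that promote cell division in shoots and help to maintain the meristem. Receptor histidine kinases bind the hormone in a membrane and start a relay of phosphate groups. Small phosphotransfer proteins carry the phosphate to response regulators. Some regulators then act as transcription factors, while others are induced by the hormone and dampen the signal, and the hormone itself is degraded by cytokinin oxidases. The comparison asks which of these components had transcripts preferentially in the meristem.

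Values are log2 ratios of the channels, centred so that the median probe of a scan is at 0. Which tissue is the numerator is not given in the sources used here. Of the photosynthesis genes, which belong to the green seedling, 7 of 9 on the first set and 9 of 9 on the second passed on the negative side (adjusted p under 0.05), and 1 of the first set, Cab-m7, passed on the positive side. Cab-m7 lay at 1.09 on the first set and at −4.28 on the second. PSBQ lay at 0.26 on the first set, without passing, and at −6.07 on the second. Meristem and leaf initiation genes lay on the positive side, 7 of 7 and 7 of 9 passing. Positive ratios are therefore taken to point to SAM and negative ones to seedling, which is likely but not stated. In such pools, more cells of a type and more RNA per cell cannot be told apart, and the different RNA extraction of the 2 tissues cannot be told apart from tissue.

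HK1, a cytokinin receptor, and the response regulator RR9 lay 2.51-fold and 2.86-fold on the SAM side, above 0 on every slide that carried them. RR4, another response regulator, passed toward SAM in the first set, while its smaller ratio in the second missed the threshold. The receptor hk3 passed with a small ratio toward SAM in the second set and varied so widely in the first that no direction could be called. Each set measured 3 member genes, of which 2 passed toward SAM (adjusted p under 0.05) and none toward seedling. Among all named genes, 27.1% of the first set and 27.9% of the second passed on the SAM side. The 3 member genes had a median of 1.51 in set 1 and of 0.35 in set 2, beside −0.24 and −0.22 for all named genes. In both sets this median is the value of hk3, whose direction could not be called in set 1. With so few members these counts describe the members only.

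**Figure D1:**
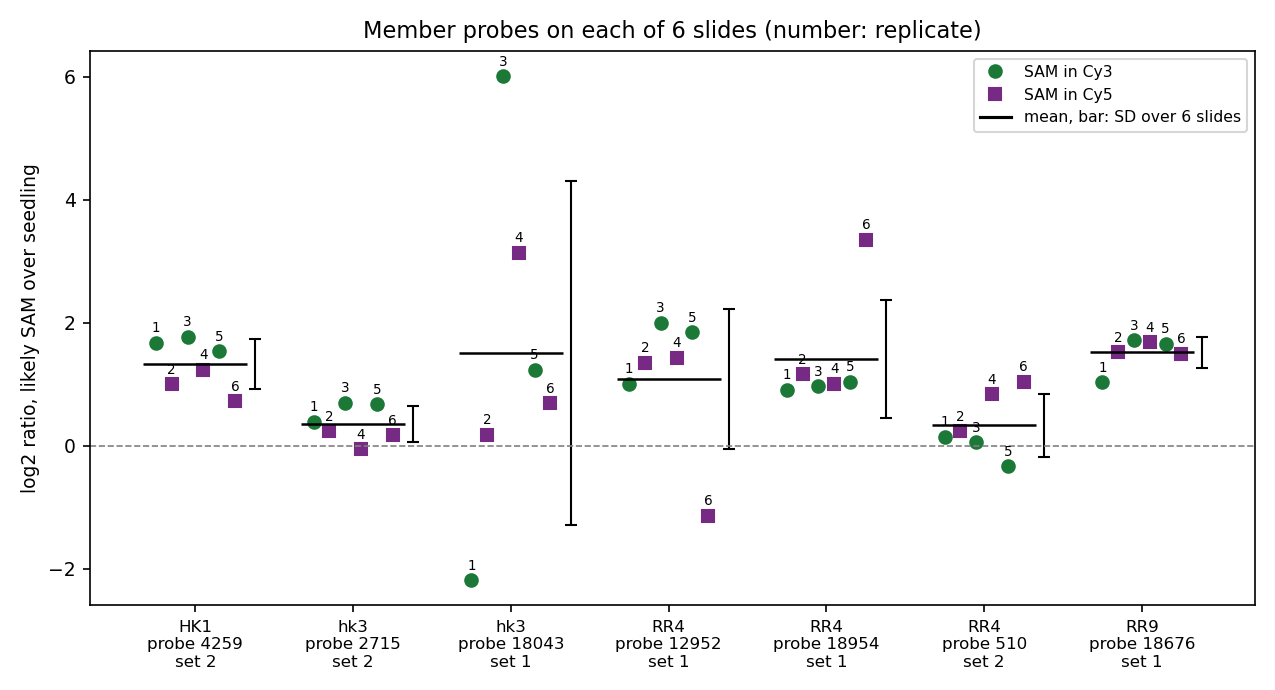
Log2 ratio (vertical axis, likely SAM over seedling) of the 7 member probes on each of 6 slides, numbered by replicate, with circles for SAM in Cy3 and squares for SAM in Cy5; lines are means and bars the SD. RR9 and HK1 are above 0 on all 6 slides, while replicate 6 sets the RR4 probes 12952 and 18954 apart and hk3 on the first set spreads from −2.19 to 6.01.

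Of the receptors, HK1 had log2 ratios of 1.68, 0.9998, 1.77, 1.24, 1.54 and 0.73 in replicates 1 to 6 of the second set. All 6 slides lay above 0, as for 24.6% of the named genes of that set. The mean was 1.33 ± 0.41 (SD, n = 6), a 2.51-fold difference, with a 95% interval of 1.10 to 1.55 and a limma adjusted p of 1.94e-05. Only 34 of 455 named genes lay higher. The 3 slides with SAM in Cy3 gave a mean of 1.66 and the 3 with SAM in Cy5 a mean of 0.99, without overlap between the orientations. The dye term, which is the distance of either orientation from their mean, was 0.34 and did not pass (adjusted p = 0.106); it passed for 3.3% of the named genes of the set. The 18 scans ranged from 0.61 to 2.79, and the mean over slides was 1.62 in the low scan, 1.30 in the medium scan and 1.06 in the high scan.

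The receptor hk3 was measured by a different clone on each set. On the second set its log2 ratios were 0.39, 0.23, 0.70, −0.06, 0.67 and 0.17 in replicates 1 to 6. Replicate 4 lay just below 0 and the other 5 above it. The mean was 0.35 ± 0.30 (SD, n = 6), a 1.27-fold difference, with a 95% interval of 0.15 to 0.55 and a limma adjusted p of 0.00853. The mean was 0.59 with SAM in Cy3 and 0.11 with SAM in Cy5, where hk3 did not pass by itself (adjusted p = 0.454). In the high scan alone hk3 did not pass either, at 0.29 (adjusted p = 0.0614).

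On the first set the hk3 probe gave −2.19, 0.18, 6.01, 3.14, 1.24 and 0.69 in replicates 1 to 6. Replicate 1 lay clearly on the seedling side and replicates 3 and 4 far on the SAM side. The mean was 1.51 with an SD of 2.80 over the 6 slides, a 95% interval of −0.98 to 4.01 and a limma adjusted p of 0.224. Its SD exceeded that of 99.3% of the probes of the set. Without replicate 1 the mean was 2.48 (adjusted p = 0.0439), and without replicate 3 it was 0.43 (adjusted p = 0.59). In the low scan of replicates 2 and 6 the hk3 value was shared with 1139 and 1493 other spots, the largest groups of equal values in those scans, for which equal readings in both channels would give such a ratio. Of its 18 scans, 5 had a value shared with at least 2 other spots, which none of the other 6 member probes had. With the largest group of equal values left out of every scan, the hk3 mean was 1.57 with an SD of 2.78 (limma adjusted p = 0.209). The part of the other shared values in the spread was not tested.

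**Figure D2:**
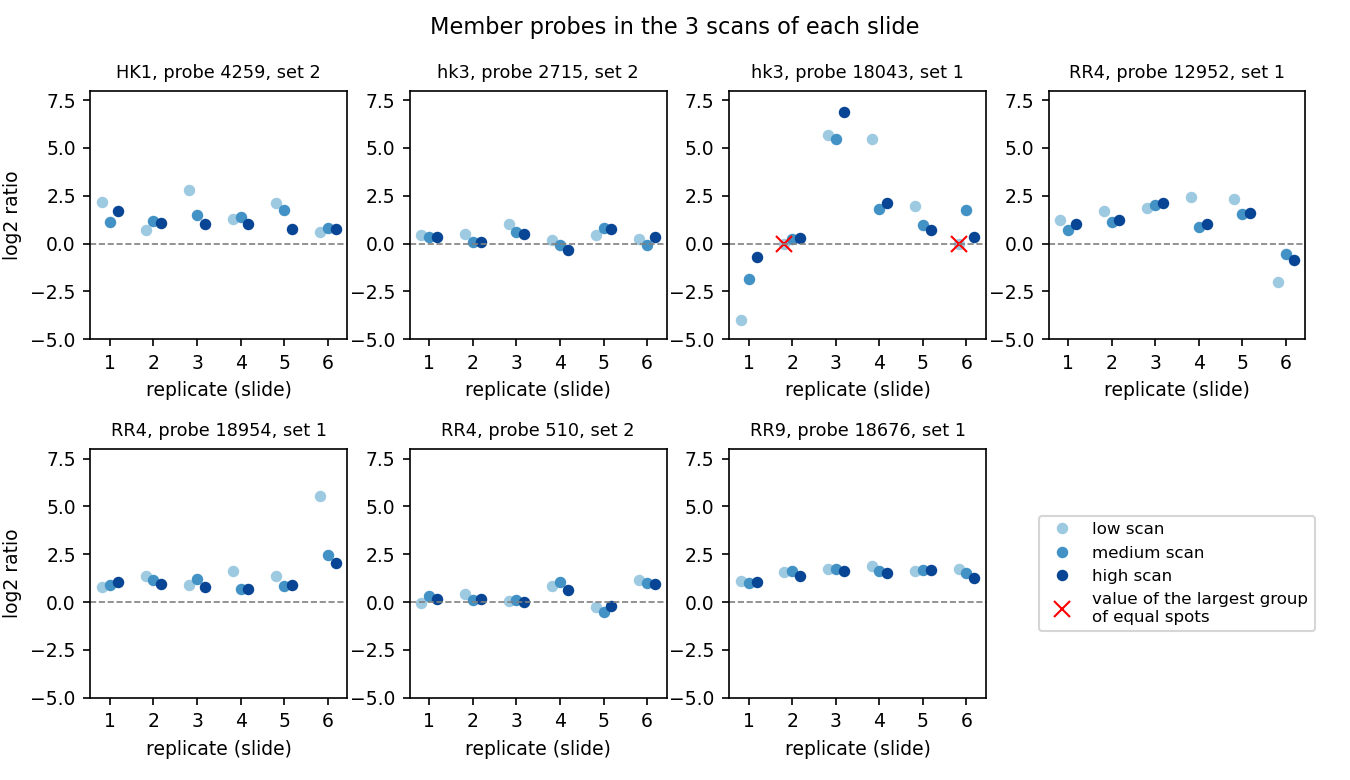
Log2 ratio (vertical axis) of each member probe in the low, medium and high scan of each slide (horizontal axis, replicate), with crosses on the 2 hk3 values shared by the largest group of equal spots. The scans of RR9 lie within 0.48 of each other on every slide, whereas those of hk3 on the first set differ by up to 3.63 and those of the RR4 probe 18954 in replicate 6 by 3.53.

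RR9, a response regulator, had the smallest SD of the 7 member probes. Its log2 ratios on the first set were 1.03, 1.52, 1.71, 1.68, 1.66 and 1.499 in replicates 1 to 6. Replicate 1 was the lowest and the other 5 lay within 1.499 to 1.71, all above 0 as for 21.6% of the named genes of that set. The mean was 1.52 ± 0.25 (SD, n = 6), a 2.86-fold difference, with a 95% interval of 1.23 to 1.81 and a limma adjusted p of 5.61e-05. Of 582 named genes 42 lay higher. The SD of the probe exceeded that of only 9.39% of the probes of the set, and the dye orientations gave 1.47 with SAM in Cy3 and 1.57 with SAM in Cy5; its dye term did not pass, as that of 3.61% of the set's named genes did. In the low, medium and high scans the means were 1.61, 1.53 and 1.42.

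RR4 was measured by 3 clones, which differed from each other. On the first set probe 12952 gave 1.01, 1.35, 2.00, 1.43, 1.84 and −1.14 in replicates 1 to 6. Probe 18954 gave 0.91, 1.16, 0.97, 1.01, 1.04 and 3.35. In replicates 1 to 5 both probes lay on the SAM side, with probe 12952 the higher in each. In replicate 6 probe 12952 lay on the seedling side and probe 18954 far on the SAM side, probe 12952 minus probe 18954 being −4.49 on the same slide. The low, medium and high scans of that slide gave −2.002, −0.54 and −0.87 for probe 12952 and 5.56, 2.47 and 2.03 for probe 18954. The slide of replicate 6 also had the widest spread of all probes in the set, with a median absolute deviation of 1.38, against 1.05 to 1.25 on the others; the part of this in the RR4 values was not tested.

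Both RR4 probes of the first set passed toward SAM, as did 31.5% of all its probes. Probe 12952 averaged 1.08 ± 1.14 (adjusted p = 0.0345 over all probes) and probe 18954 averaged 1.41 ± 0.96 (adjusted p = 0.00636; limma, SD, n = 6 slides). The difference between the probes was −0.32 ± 2.07, with an exact two-sided sign-flip p of 1 over the 6 slides. Without replicate 6 it was 0.51 ± 0.40 (exact p = 0.0625, the smallest that 5 slides allow). The gene value, the mean of both probes, was 1.24 ± 0.20, a 2.37-fold difference, with a 95% interval of 0.99 to 1.50 and a limma adjusted p of 7.43e-05. The opposite deviations of the probes in replicate 6 cancel in this mean. Without that replicate the gene value was 1.27 ± 0.21 (SD, limma adjusted p = 0.000411), so the SD was also small over the other 5 slides.

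On the second set RR4 gave 0.15, 0.24, 0.05, 0.84, −0.33 and 1.04 in replicates 1 to 6. Replicates 4 and 6 were the highest and replicate 5 lay below 0. The mean was 0.33 ± 0.51 (SD, n = 6), with a 95% interval of 0.02 to 0.64 and a limma adjusted p of 0.0561, which missed the threshold. The slides split by dye, with a mean of −0.04 with SAM in Cy3 and 0.71 with SAM in Cy5, where RR4 passed by itself (adjusted p = 0.0327). The dye term of −0.38 did not pass (adjusted p = 0.156). RR4 also passed in the low scan alone (0.36, adjusted p = 0.0347), without replicate 2 (0.45, adjusted p = 0.0132) and without replicate 5 (0.40, adjusted p = 0.0492).

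RR4 and hk3 could be compared between the slide sets, which carried different clones but received the same RNA pairs. RR4 averaged 1.24 in set 1 and 0.33 in set 2, and was higher on the first in 6 of 6 replicates. The difference was 0.91, with a 95% interval of 0.46 to 1.37 and a limma adjusted p of 0.00595, and 34.7% of the 297 genes on both sets passed this test. This fit did not pair the slides that shared RNA. With replicates as blocks the limma adjusted p was 0.0275. In the medium scan alone, without blocks, the difference was 0.74 and did not pass (limma adjusted p = 0.0504). In replicate 6 RR4 lay at 1.11 in set 1 and at 1.04 in set 2. The former is the mean of probes at −1.14 and 3.35. With SAM in Cy3 alone RR4 averaged 1.30 in set 1 and −0.04 in set 2. With SAM in Cy5 alone it averaged 1.19 in set 1 and 0.71 in set 2. The set difference was not tested within an orientation. For hk3 the means were 1.51 in set 1 and 0.35 in set 2. The first set was higher in 4 of 6 replicates, the difference of 1.16 had a 95% interval of −1.19 to 3.52, and it did not pass (adjusted p = 0.448). It was 0.33 without replicate 3 and 1.91 without replicate 1, and passed in neither case.

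The members' ratios were also set against each other within a slide, in 3 pairs per set, with an exact two-sided sign-flip test whose smallest p over 6 slides is 0.03125. After Benjamini-Hochberg adjustment over the 3 pairs of a set, a lone pair at that smallest p has an adjusted p of 0.0938. It cannot pass, so sizes and intervals are given and no pair is called. The intervals come from a t distribution over the 6 slide differences, unadjusted, unlike the limma intervals of single genes. They are a calculation apart from the exact p, and neither has a dye term. On the second set HK1 lay above hk3 on 6 of 6 slides, by 0.98 ± 0.30 (SD, n = 6; exact p = 0.03125, adjusted p = 0.0938), with a 95% interval of 0.66 to 1.29. RR4 lay below HK1 on 5 of 6 slides, the difference being −0.99 ± 0.86 (exact sign-flip p = 0.0625, adjusted p = 0.0938). Its 95% interval was −1.90 to −0.09. With SAM in Cy3 RR4 averaged −0.04 and HK1 1.66, and with SAM in Cy5 RR4 averaged 0.71 and HK1 0.99. The part of dye orientation in this difference was not tested. On the first set RR4 lay below RR9 on 6 of 6 slides, the difference being −0.27 ± 0.14 (exact p = 0.03125, adjusted p = 0.0938), with a 95% interval of −0.42 to −0.13. However, it was −0.00965 in the low scan alone and −0.45 in the medium scan alone. RR4 minus hk3 was −0.27, with a 95% interval of −3.05 to 2.51, on the first set and −0.02, with an interval of −0.84 to 0.80, on the second. RR9 minus hk3 was 0.01, with an interval of −2.72 to 2.73. These 3 intervals hold differences in either direction.

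**Figure D3:**
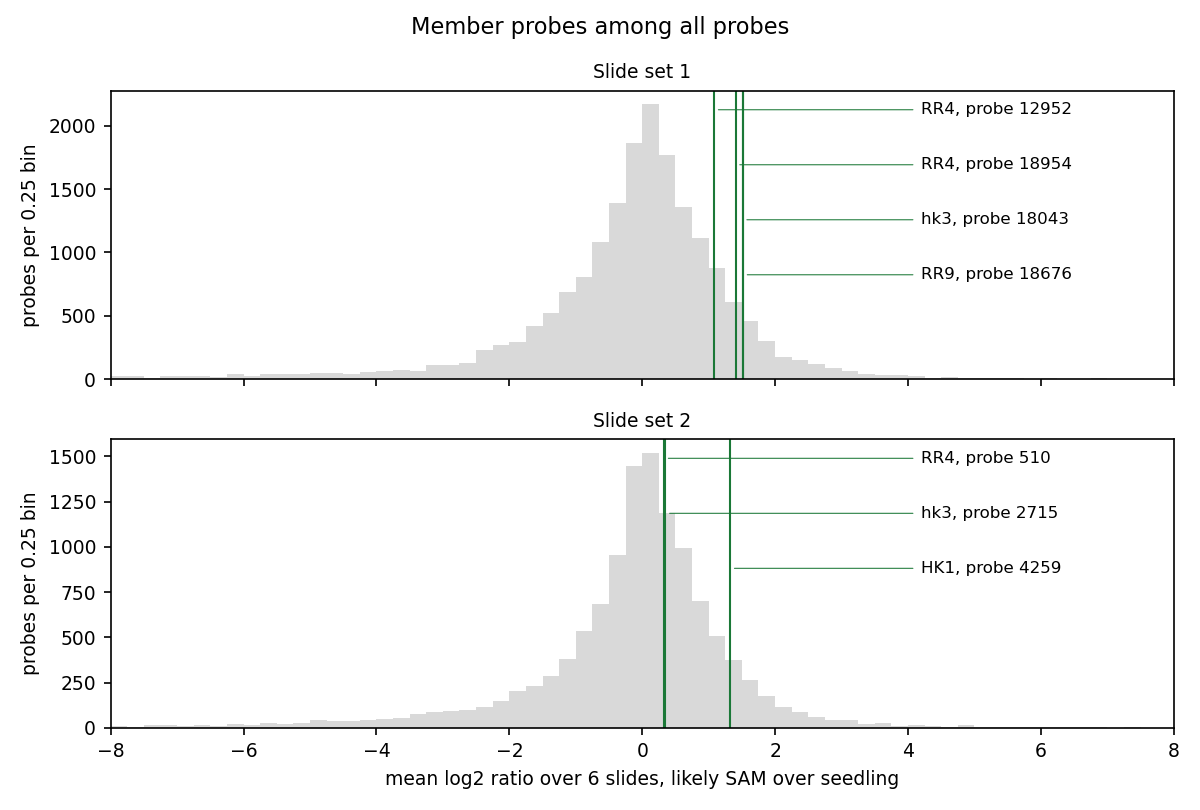
Number of probes (vertical axis) by mean log2 ratio over 6 slides (horizontal axis, likely SAM over seedling) in each slide set, with lines at the member probes. On the first set the members lie above 84.7% to 91.4% of the probes, and on the second RR4 and hk3 lie above 64.3% and 65.1% and HK1 above 90.2%.

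Other genes of the pathway were looked up by a list of names for receptors, phosphotransfer proteins, response regulators and enzymes of cytokinin synthesis, conjugation and degradation, of which 10 genes with values were found, members included. The 6 that are no members had means below 0. All 3 measured by set 1 passed on the seedling side, as did 45.2% of all named genes, and 2 of 3 of set 2 did, beside 45.7%. None passed on the SAM side. Their medians were −0.80 and −0.66. They include the receptor HK2 and the response regulators RR5 and RR6, of the same families as the members. The members were chosen with earlier results of these data known. The split by side between members and other genes is therefore no independent result.

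Among the other response regulators, RR6 gave −2.15, −3.49, −0.21, −2.43, −2.14 and −6.08 in replicates 1 to 6 of the first set. All 6 slides lay below 0, as for 40.2% of the named genes there, with replicate 3 close to 0 and replicate 6 far below the rest. The mean was −2.75 ± 1.95 (SD, n = 6), 6.72-fold toward the seedling (limma adjusted p = 0.00306). It was −1.4988 with SAM in Cy3 alone and −3.998 with SAM in Cy5 alone, and passed in both. The low scan of replicate 6 stood at −10.76, with −3.56 and −3.92 in the medium and high scans of that slide. RR5, the mean of 2 probes, lay at −0.57 ± 0.26 (adjusted p = 0.00107), a call lost with SAM in Cy3 alone (adjusted p = 0.0801), and its probe on the second set held no value. Its probes averaged −0.80 ± 0.71 and −0.35 ± 0.25, both passing on the seedling side, as did 31% of all probes. For the first of them the mean was −0.18 with SAM in Cy3 and −1.41 with SAM in Cy5. The dye term of this probe, 0.61, passed (limma adjusted p = 0.0367 over all probes). That of the RR5 gene value did not (limma adjusted p = 0.142), while 3.61% of the set's named genes passed.

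The phosphotransfer gene HP2, whose protein carries phosphate from receptors to regulators, lay at −0.80 ± 0.41 on the first set (adjusted p = 0.00453). Its slides ranged from −1.36 to −0.16. The slide at −0.16, replicate 6, includes a low-scan value of 0 shared with 1493 other spots, the largest such group of that scan. With SAM in Cy5 alone HP2 lay at −0.70 and did not pass (adjusted p = 0.101). HP2 was −1.37 in the low scan and −0.48 in the medium scan, passing in both. The receptor HK2 lay at −0.08 ± 0.42 on the second set, with a 95% interval of −0.46 to 0.29 (adjusted p = 0.639), below 0 on 4 of 6 slides. HK2 was not tested against HK1 or hk3. The cytokinin oxidases, which degrade the hormone, lay on the seedling side of the second set on all 6 slides, as did 40% of the named genes. The oxidase gene cko3 lay at −2.38 ± 0.81 (5.21-fold toward the seedling, adjusted p = 0.000373) and cko2 at −0.66 ± 0.48 (adjusted p = 0.00943; limma, SD, n = 6). The call of cko2 was lost in the medium scan (adjusted p = 0.0758), the high scan (0.0642) and with SAM in Cy3 alone (0.164).

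**Figure D4:**
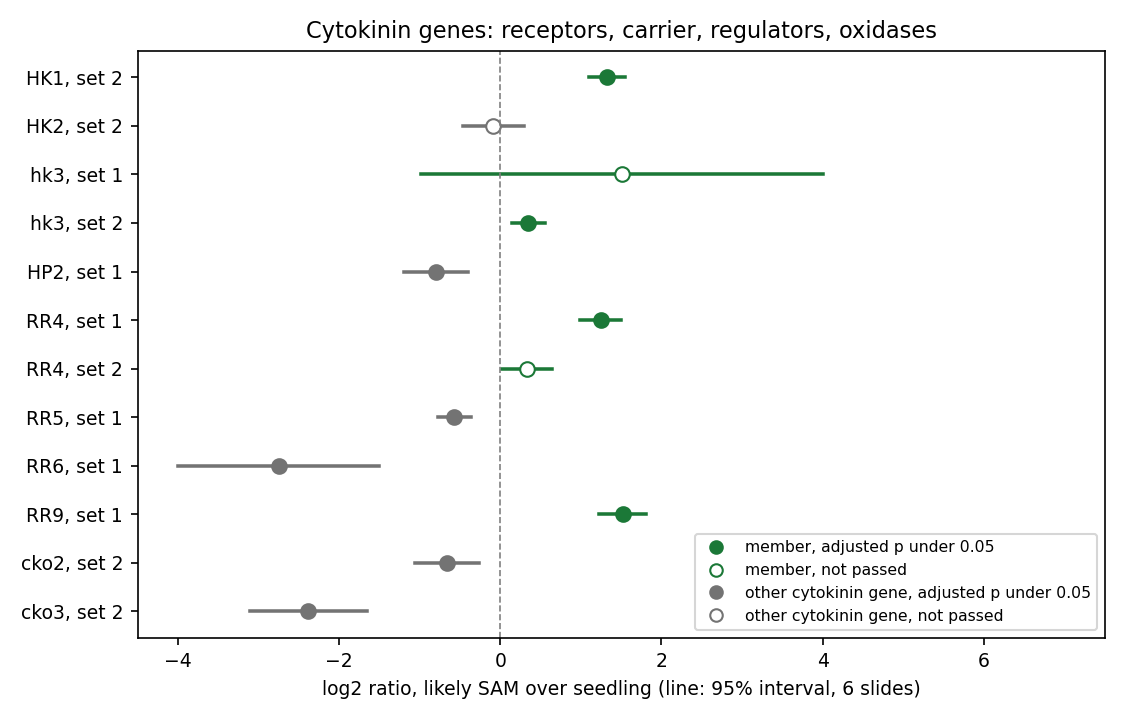
Log2 ratio (horizontal axis, likely SAM over seedling) with its 95% interval over 6 slides for the 10 cytokinin genes on each set that carried them, filled where the adjusted p is under 0.05. The members RR4, RR9, HK1 and hk3 have means between 0.33 and 1.52, and the other 6 genes between −2.75 and −0.08. The members were chosen with earlier results of these data known.

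The named genes whose values over the 6 slides were closest to each member were found by the mean absolute difference from it. For RR9 these were LOC542103 (0.19 apart on average), sgo1 (0.20) and the leaf polarity gene rld1 (0.21). The closest to HK1 were stm1 (0.15), rld1 (0.19) and orc1 (0.20), a gene of the origin recognition complex that starts DNA replication. RR4 was closest on the first set to the glutathione transferase gst41 (0.15), MRP2 (0.16) and magi81248 (0.19), and on the second to Sod4A, gln1-3 and DBP1a (0.29 to 0.30). For hk3 the closest on the second set were mbd101 (0.07), a gene of the methyl-DNA-binding family, fmi1(pki) (0.08) and eif5a (0.14). On the first set no named gene came closer to hk3 than 1.70, the replication helicase gene MCM6. These distances were taken over 579 genes of the first set and 452 of the second.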

How the data were processed

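The deposited values are ratios of the 2 channels of a scan on a log scale, with normalization and background handling not given in the sources used here. The base is not stated, and the deposited values were read as natural log (ln) and converted to log2. For this, differences between a positive and a negative value, each repeated within a scan, were compared with doubled logs of whole numbers up to 200. Of 17219 pairs, 151 matched for natural log (tolerance 2e-05), against 2 for log2 and 7 for log10. Only differences under the doubled natural log of 200 were examined. Fewer whole numbers could therefore match for log2, so the counts are not on equal terms and the base is likely but not settled. The authors' values already ran the same way on all slides, since slides of opposite dye correlated at 0.60 to 0.86. Scans were median-centred, and the 3 of a slide averaged. Of 19200 and 14080 spots, 898 and 2001 held no value, and 53 identical spots counted as 1 probe, leaving 18302 and 12027.

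Names came from the platform annotation, with symbols updated by gene identifier from RefSeq's table for Zm-B73-REFERENCE-NAM-5.0. Probes of several genes (23) were left out, and gene values are means of probes. The model, fitted with limma 3.58.1 (R 4.3.3), had the mean ratio and the dye orientation as terms, with Benjamini-Hochberg adjustment over the 582 or 455 named genes (or the probes) of a set; the fit over probes was tested on simulated ratios with known changes. For the set comparison, same-numbered slides share RNA pools per the labels; their deviations correlated at 0.01 to 0.12 over 297 genes. Without signal intensities the precision rests on the number of slides. The members, lists and rules were chosen with earlier results of these data known. Named were the members, every measured gene of the cytokinin list and the 3 genes most like each member. Figures used matplotlib 3.10.9, pandas 2.3.3 and Python 3.11.15. Alternatives were no centring, scaled slides, single scans, no dye term, robust eBayes, 1 dye orientation, each replicate left out, reading as log2, the median of probes, a 2-fold limit and a replicate block; single RR4 probes and floor values left out were added after seeing the data.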

Additional observations from a re-analysis of the deposited data

Results flagged for a closer look

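Of the 14 probes of cytokinin genes, each measured on 6 slides, 3 had a slide whose gap to its nearest neighbour took up an unusually large share of the whole range; chance alone gives this for about 5% of such groups. Both RR4 probes of the first set did so in replicate 6. Probe 12952 lay there at −1.14, against 1.01 to 2.00 on the other slides, and probe 18954 at 3.35, against 0.91 to 1.16. The RR9 probe lay at 1.03 in replicate 1, against 1.499 to 1.71 on the others.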

How the results depend on the processing

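HK1 on the second set and RR9 and RR4 on the first kept their side and their call under every alternative run, at 0.92 to 1.66, 1.05 to 1.63 and 0.86 to 1.597. The low ends come from reading the values as log2, which rescales all ratios alike and cannot change a call. The median of probes also leaves these values unchanged by construction, since the genes have 1 or 2 probes. The call of hk3 on the second set was lost in the high scan alone (0.29) and with SAM in Cy5 alone (0.11). RR4 on the second set passed in the low scan alone (0.36) and with SAM in Cy5 alone (0.71) and lay at −0.0445 with SAM in Cy3 alone; leaving out 1 replicate gave 0.25 to 0.45, passing without replicate 2 or 5. For hk3 on the first set leaving out 1 replicate gave 0.43 to 2.48, passing without replicate 1. HK2 changed sign in the low scan alone (0.0606), with SAM in Cy5 alone (0.0495) and without replicate 4 (0.0852), the highest of a range from −0.18. Pairs that had not passed changed sign for RR4 minus hk3 in the low scan of the first set (0.0710) and the medium scan of the second (0.0695), and for RR9 minus hk3 with scaled slides (−0.0807) and in the high scan (−0.19). Leaving out 1 replicate also changed their signs, with ranges of −0.95 to 0.58 for RR4 minus hk3 and −0.64 to 0.87 for RR9 minus hk3 in the first set, and −0.20 to 0.18 for RR4 minus hk3 in the second. With a replicate block the set difference of RR4 had an adjusted p of 0.0275 and that of hk3 0.396, which changed no call; in the medium scan alone that of RR4 was lost (0.74). Asking for at least 2-fold reduced the probes that passed to 6619 of 11437 and 3875 of 7769, and the named genes to 256 of 421 and 188 of 335. The causes of these changes were not tested, except that the last limit and the single orientations use fewer calls or slides by construction. HK1 in set 1 and RR9 in set 2 had no probe, so their alternatives gave no value. Depth cannot be given, since no intensities were used here.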

Other observations

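Over the 6 slides RR6 averaged −4.02 in the low scan, −2.04 in the medium scan and −2.18 in the high scan. The oxidase gene cko3 averaged −3.72, −1.77 and −1.66 in these scans, with a lowest single scan of −8.98 in replicate 3. RR9 averaged 1.61, 1.53 and 1.42 in the low, medium and high scans.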
